A study of Gallus gallus with 3 samples.

Results

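Collagens are the proteins that give connective tissue its strength, and 21 of their genes that are not typical of cartilage were examined here in forelimb cells of chicken embryos. They were taken from the 24356 genes of the count tables by their symbols, which read COL, a number, A and a number, without the cartilage collagens COL2A1, COL9A1, COL9A2 and COL9A3. The 21 genes fall into 5 chains of fibrillar collagens (COL1A1, COL1A2, COL3A1, COL5A1, COL5A2), 4 of fibril-associated collagens (COL12A1, COL14A1, COL20A1, COL22A1), 2 of basement membrane collagen (COL4A1, COL4A2), 3 of the beaded filament collagen VI (COL6A1, COL6A2, COL6A3), 2 of short network-forming collagens (COL8A1, COL8A2), 3 of collagens that span the cell membrane (COL13A1, COL17A1, COL25A1) and 2 others (COL26A1, COL28A1). All 21 were also found by symbol in the RefSeq gene table of another chicken assembly, in which COL3A1 and COL5A2, COL4A1 and COL4A2, and COL6A1 and COL6A2 are neighbours with 0 coding genes between them.

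A collagen molecule is a triple helix of chains that are made in the endoplasmic reticulum, hydroxylated there and trimmed after secretion. Collagen I, with collagens III and V, forms the fibrils of tendon, dermis and the connective tissue of muscle, and the fibril-associated collagens XII and XIV sit on their surface. Collagen IV forms the sheets of the basement membranes that surround vessels, nerves, muscle fibres and epithelia, and collagen VI forms fine filaments between these sheets and the fibrils.

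The study asked whether limb connective tissue cells contribute to muscle, and for this forelimbs were dissociated with collagenase at embryonic days 4, 6 and 10 (E4, E6 and E10). Each stage is 1 library of pooled cells, from 2 embryos for E4 and 3 each for E6 and E10, with no treatment or genotype given, so that there are no replicates and stage cannot be told apart from library. Each mRNA molecule was counted near its 3′ end by a unique molecular identifier (UMI), and a barcode counted as a cell if it held 1000 (E4), 700 (E6) or 450 UMIs (E10). No p-value was computed, and all intervals are 95% intervals of counting error only.

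E4 then had 5235 cells with a median of 3645 UMIs, E6 had 4237 with 2216 and E10 had 27361 with 1081, although the labels give 5000 cells as loaded per condition. Cells with over 10% mitochondrial UMIs made up 3.29%, 26.3% and 26.0% of these cells, and between 13 and 35 barcodes were shared by any 2 libraries. In all, 9 classes were defined by 1 UMI of PRRX1, OSR1, SCX, TWIST2, PAX7, MYOG, ACTA2, CDH5 or EPCAM and can share cells, and only classes of at least 50 cells were compared. Their labels were checked at E10 with marker lists: at least 2-fold above the other cells were 7 of 9 muscle markers in MYOG+ cells, 6 of 6 smooth muscle markers in ACTA2+ cells, 4 of 4 endothelial markers in CDH5+ cells and 8 of 8 ectoderm markers in EPCAM+ cells. In PAX7+ cells only 3 of 9 muscle markers were, and in PRRX1+, OSR1+, SCX+ and TWIST2+ cells 3, 3, 2 and 4 of 7 connective tissue markers were. At E6, 0 of 7 were so in PRRX1+, OSR1+ and SCX+ cells, so these classes are called by their marker gene alone. The lists held 10 muscle, 7 smooth muscle, 8 endothelial and 10 ectoderm markers. Only those in the count tables, other than the class marker itself, were counted. ACTA2+ cells at E10 also had 3 of 10 muscle and 1 of 4 endothelial markers at least 2-fold higher. PRRX1+ cells at E10 had 4 of 6 smooth muscle markers at least 2-fold higher, with a sum of 94.4 against 71.5 CPM.

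Collagen genes supplied 0.184% (0.182 to 0.186) of the UMIs of the E4 cells, 0.341% (0.337 to 0.345) for E6 and 1.73% (1.72 to 1.73) for E10. The share was low at both early stages and highest at E10. Of the 21 genes, 2, 4 and 10 reached 100 CPM (UMIs in 1000000 UMIs) over the 3 stages in turn, and 8, 12 and 15 reached 10 CPM. COL28A1, a minor collagen, had 0 UMIs at E4, which allows up to 0.144 CPM. Fibrillar collagens made up 91.6%, 87.3% and 85.0% of the collagen UMIs, and COL1A1 alone 66.5%, 54.2% and 57.8%.

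**Figure D1:**
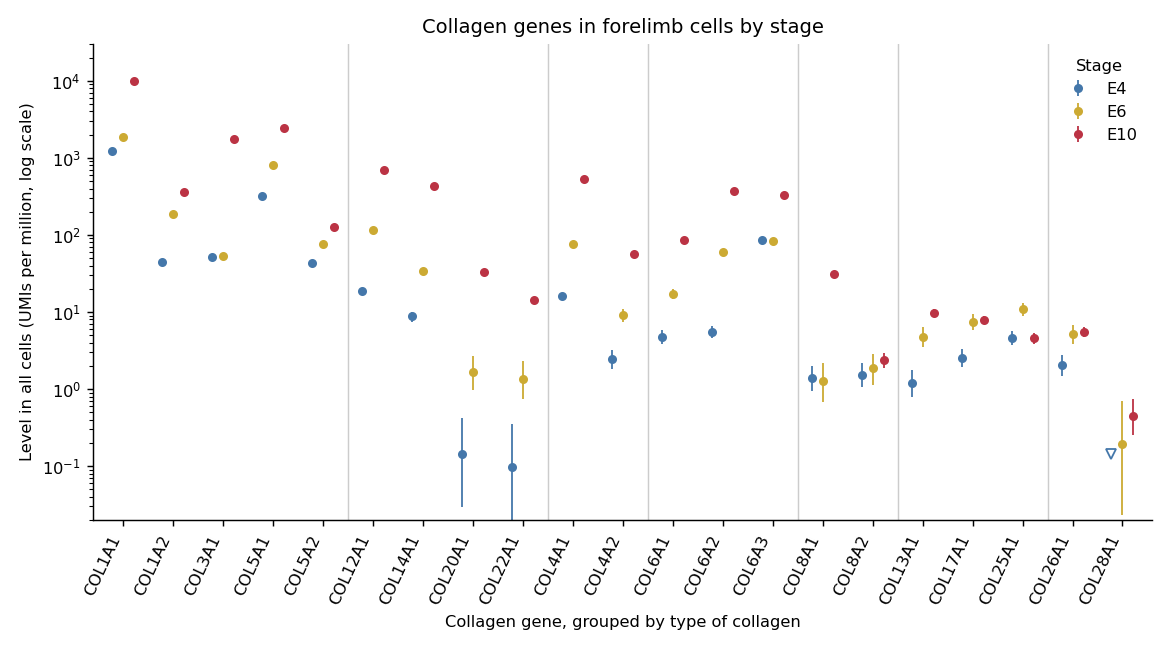
Level of each of the 21 collagen genes in all cells (CPM, log axis) by stage, with 1 library per stage; points are levels, bars are exact Poisson 95% intervals, and the open triangle is the upper limit of COL28A1, which had 0 UMIs at E4. The E10 point is the highest for each gene that passes 10 CPM except COL25A1, which is highest at E6.

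A level was called higher or lower when it differed at least 2-fold, the Poisson intervals did not overlap and the gene had at least 50 UMIs in both groups together. Between E4 and E6, 12 of the 17 collagen genes with enough UMIs were higher at E6, against 9.32% of the 10575 genes that could be called, and 0 were lower, against 3.61%. The median log2 ratio of the 17 was 1.56, and that of all these genes was -0.02. Between E6 and E10, 14 of 20 were higher at E10, against 9.53% of 11606 genes, and 1 was lower, against 5.49%. The median log2 ratio of the 20 was 2.38, and that of all these genes was -0.04.

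The same was seen when the cells were limited to those with a PRRX1 UMI, a marker of limb mesenchyme. In these, 11 of 16 collagen genes were higher at E6 than at E4 (8.17% of all genes) and 0 were lower (3.69%), and 16 of 19 were higher at E10 than at E6 (9.11%) and 0 lower (4.77%). Free RNA also differed between the libraries. Its estimated share of the UMIs of cells was 0.225%, 1.37% and 6.45% from E4 to E10, and collagen genes gave 0.0947%, 0.133% and 0.573% of the UMIs of barcodes without a cell (10 to 100 UMIs), below the share in cells at each stage. With free RNA subtracted, the share in cells at E10 was 1.81%.

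Collagen I is the main collagen of tendon, bone and dermis. Its COL1A1 chain stood at 1222 CPM (1207 to 1237) in the E4 library, 1847 CPM (1821 to 1873) in that of E6 and 10001 CPM (9967 to 10035) in that of E10. The step from E4 to E6, 1.51-fold, was not called, and that from E6 to E10 was 5.41-fold (5.34 to 5.50). COL1A2, its partner chain, was at 44.4, 185 and 365 CPM, which was 4.17-fold higher at E6 than at E4 and then 1.97-fold higher at E10 than at E6, just under the 2-fold limit. This last step passed the limit under 5 alternatives, such as the 10% mitochondrial limit (log2 ratio 1.17), and fell further below it under 2 others. In PRRX1+ cells the last step of COL1A2 was 3.02-fold (2.84 to 3.23) and that of COL1A1 8.63-fold (8.47 to 8.80).

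The folds of the 2 chains thus differed at each step. The ratio of COL1A1 to COL1A2 UMIs was 27.5 (25.8 to 29.4), 9.97 (9.51 to 10.5) and 27.4 (26.9 to 27.9) over the 3 stages. It was low at E6 in every class that could be compared with another stage: PRRX1+ cells gave 28.4, 10.1 and 28.9, TWIST2+ cells 30.1, 10.3 and 30.7, SCX+ cells 28.6, 10.1 and 30.1, OSR1+ cells 26.1, 10.3 and 23.0, and EPCAM+ cells 27.5, 11.5 and 19.4, while PAX7+ cells went from 13.9 at E6 to 23.2 at E10 and MYOG+ cells from 8.77 to 30.5. UMIs at the 3′ end depend on how well that end is annotated for each gene, so a ratio is read only between libraries and not as the ratio of chains. Stage and library cannot be told apart here.

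COL3A1, the only chain of collagen III, which is abundant in skin and vessels, showed the largest fold from E6 to E10 among the 13 collagen genes with at least 100 CPM in a stage or class. It was at 51.3 CPM at E4 and 54.0 CPM at E6, with overlapping intervals, and at 1772 CPM at E10 (1758 to 1786), 32.8-fold above E6 (30.2 to 35.7). In PRRX1+ cells it was at 50.8, 34.3 and 2187 CPM, 63.9-fold above E6 (55.9 to 73.2). After each cell was thinned to 450 UMIs, 2.77%, 2.64% and 38.8% of cells held a COL3A1 UMI, where the unthinned shares were 16.4%, 9.32% and 50.9%. The same thinning gave 40.8%, 51.3% and 66.6% for COL1A1, against 93.4%, 88.0% and 77.3% unthinned, so that the order of the stages turned with depth.

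The collagen V chains, which start fibrils and limit their width, were next. COL5A1 was at 320.4 (313 to 328), 816 (799 to 834) and 2429 CPM (2412 to 2446), a 2.55-fold and then a 2.98-fold step. COL5A2 was at 43.6, 75.8 and 127 CPM, and neither of its steps, 1.74-fold and 1.68-fold, was called. Its neighbour on the chromosome, COL3A1, held 1.18, 0.712 and 13.9 times the UMIs of COL5A2 over the stages. In PRRX1+ cells COL5A2 was 2.03-fold higher at E10 than at E6, a call that was lost when the UMI minimum was doubled or the highest doublet scores were removed (log2 ratios 0.98 and 0.99).

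Of the fibril-associated collagens, COL12A1, which is found in dense tissues under tension, was at 18.8, 115 and 690.3 CPM. It was called at both steps, 6.14-fold (5.47 to 6.90) and 5.98-fold (5.64 to 6.35). COL14A1, described in embryonic chick tendon and skin, was at 8.75, 33.9 and 431 CPM, 3.88-fold (3.23 to 4.66) and then 12.7-fold higher (11.4 to 14.2). Both genes were thus low at E4 and high at E10. COL20A1 and COL22A1 had 3 and 2 UMIs at E4, and reached 32.7 and 14.4 CPM at E10, 19.7-fold and 10.6-fold above E6.

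The basement membrane chains rose together. COL4A1 was at 15.9, 77.2 and 524 CPM, 4.85-fold (4.26 to 5.53) and then 6.79-fold higher (6.32 to 7.30). COL4A2 was at 2.45, 9.07 and 55.9 CPM, 3.70-fold and then 6.16-fold higher. The ratio of COL4A1 to COL4A2 UMIs was 6.49 (4.82 to 8.90), 8.52 (6.86 to 10.7) and 9.38 (8.95 to 9.85), with intervals that overlapped between neighbouring stages but not between E4 and E10.

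The chains of collagen VI, a filament of the muscle and tendon matrix, did not move alike from E4 to E6. COL6A3 was at 85.0 CPM at E4 and 84.1 CPM at E6 and then at 331 CPM at E10, 3.93-fold above E6. COL6A2 was at 5.53, 60.0 and 366 CPM, a 10.8-fold (8.87 to 13.3) and a 6.11-fold step, and COL6A1 was at 4.76, 17.3 and 86.1 CPM, a 3.62-fold and a 4.99-fold step. The ratio of COL6A2 to COL6A3 UMIs was therefore 0.0651 (0.0534 to 0.0786), then 0.713 and 1.11. In PRRX1+ cells it was 0.0620, 0.658 and 1.05.

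**Figure D2:**
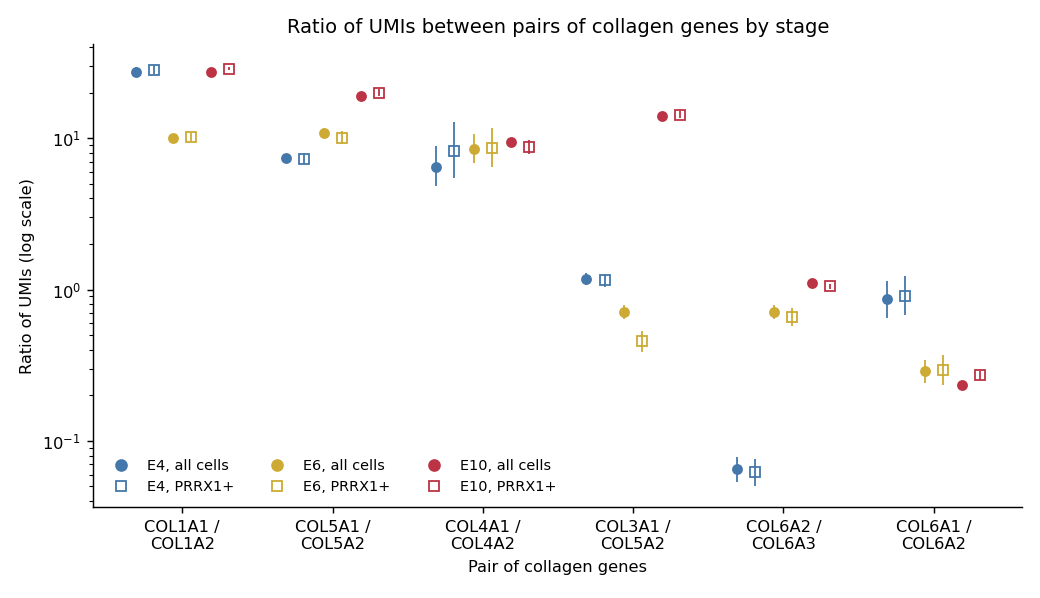
Ratio of the UMIs of 6 pairs of collagen genes (log axis) by stage, for all cells (filled circles) and PRRX1+ cells (open squares), with exact conditional 95% intervals as bars. COL1A1 to COL1A2 is near 10 only at E6, COL3A1 to COL5A2 is 13.9 at E10, and COL6A2 to COL6A3 is far below 1 only at E4.

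COL17A1, a membrane collagen that anchors basal epidermal cells, was at 2.55, 7.51 and 7.89 CPM, 2.94-fold higher at E6 than at E4 and not called from E6 to E10. The other collagens stayed under 100 CPM in all stages and in the 9 classes and are named here after their values had been seen. COL8A1 was at 1.39, 1.27 and 31.4 CPM, 24.8-fold higher at E10 than at E6. COL13A1 was higher at both steps and reached 9.78 CPM at E10, while COL25A1, a membrane collagen needed in mice for motor axons to reach muscle, was at 4.67, 10.8 and 4.59 CPM and was the only gene lower at E10 than at E6, at 0.424 of the level (0.33 to 0.55). COL26A1 was 2.50-fold higher at E6 than at E4, and COL8A2, COL26A1 and COL28A1 were at or under 5.58 CPM in all cells of each stage.

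Among the classes at E10, cells with SCX, a transcription factor of tendon, held the most collagen. Collagen genes gave 5.02% of the UMIs of SCX+ cells (4.99 to 5.06), 2.49% in PRRX1+, 2.34% in TWIST2+, 1.90% in OSR1+, 1.55% in ACTA2+, 1.22% in EPCAM+, 0.468% in CDH5+, 0.409% in PAX7+ and 0.398% in MYOG+ cells. The intervals of these pooled shares overlapped for PAX7+ (0.402 to 0.416) and MYOG+ cells (0.388 to 0.408). Those of the other neighbours in this order did not. In erythroid cells, a type that should lack fibrillar collagens (haemoglobin at least 20% of UMIs, 450 cells), the share was 0.164% (0.155 to 0.174). In barcodes without a cell it was 0.573%, above the share in CDH5+, PAX7+ and MYOG+ cells. Single cells varied widely. The 10th and 90th percentiles of the share were 1.58% and 9.12% in SCX+, 0.393% and 5.63% in PRRX1+ and 0.0736% and 0.750% in PAX7+ cells. In MYOG+ cells the 25th percentile was 0 and the 90th 1.19%. The order of the medians differed from that of the pooled shares. Medians were 2.03% in TWIST2+, 1.93% in PRRX1+, 0.256% in PAX7+, 0.167% in CDH5+ and 0.0676% in MYOG+ cells.

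**Figure D3:**
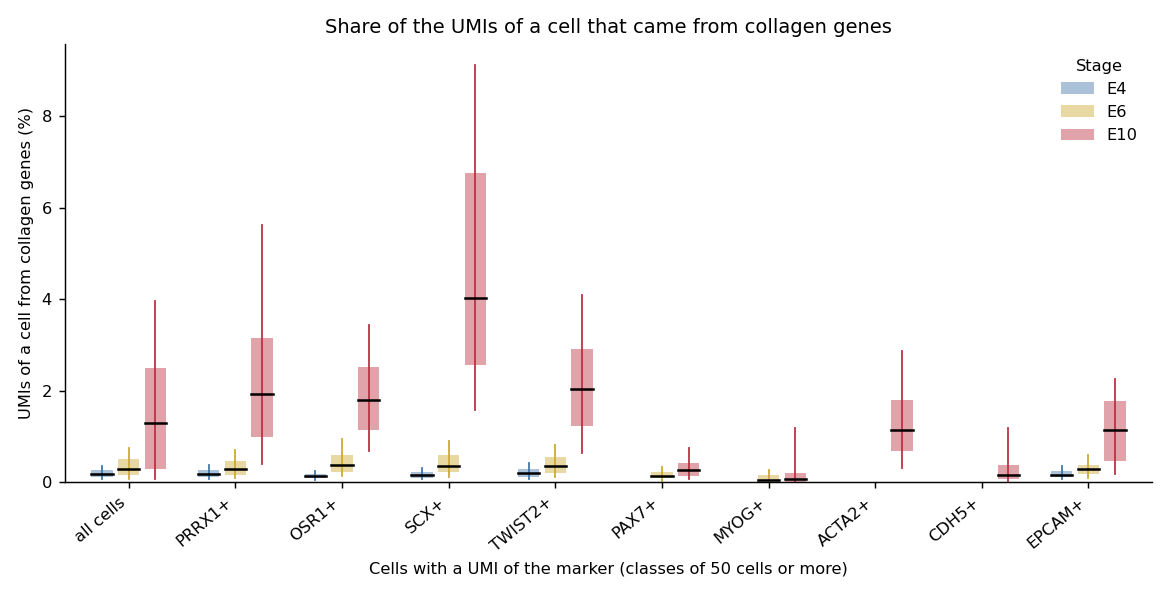
Share of the UMIs of each cell that came from the 21 collagen genes (%), for all cells and for the classes of at least 50 cells at each stage; black lines are medians, boxes the 25th to 75th and vertical lines the 10th to 90th percentiles over cells of 1 library. At E10 the median is 4.02% in SCX+ cells, 2.03% in TWIST2+ cells and 0.256% in PAX7+ cells.

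SCX+ cells had 8 of 20 collagen genes higher than the other cells at E10, against 3.32% of 11060 genes, and 2 lower, against 5.05%. COL1A1 was at 35286 CPM in SCX+ cells and 8827 CPM in the other cells, 4.00-fold higher (3.96 to 4.04), and COL1A2 at 1171 and 328 CPM, 3.57-fold higher. COL12A1 was at 3001 and 583 CPM, 5.15-fold higher (4.98 to 5.32), and COL14A1 at 1719 and 371 CPM, 4.63-fold higher (4.43 to 4.83). These cells were 4.44% of all UMIs but held 19.3% of the COL12A1, 17.7% of the COL14A1 and 15.7% of the COL1A1 UMIs. The other 4 higher genes, COL8A1, COL13A1, COL22A1 and COL25A1, were under 100 CPM, and the 2 lower ones were COL4A1 (217 and 538 CPM) and COL4A2.

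COL3A1 and COL5A2 were 0.98 and 0.99 higher on the log2 scale in SCX+ cells, just under the limit. The level of COL1A1 in SCX+ cells was 1125, 2186 and 35286 CPM over the stages, and it was 0.905 and 1.23 times that of the other cells at E4 and E6, neither of which was called. From E6 to E10, 14 of 15 collagen genes were higher within SCX+ cells, against 6.45% of all genes, with COL1A1 16.1-fold (15.6 to 16.7), COL3A1 56.5-fold (46.2 to 69.7), COL12A1 19.0-fold (16.8 to 21.6) and COL14A1 33.1-fold higher (26.7 to 41.5). Connective tissue markers were also higher in SCX+ cells, at a summed 5735 against 2978 CPM with 0 of 7 at 0, and their part in these differences was not tested.

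In PRRX1+ cells 3 of 20 collagen genes were higher than in the other cells at E10, against 1.76% of all genes, and 1 was lower, against 3.71%. COL12A1 was at 1162 against 519 CPM, 2.24-fold higher, COL8A1 at 82.9 against 12.7 CPM, 6.52-fold higher (5.70 to 7.47), and COL14A1 at 682 against 340.2 CPM, 2.00-fold higher. The COL14A1 call was lost under 5 alternatives (log2 ratios 0.95 to 0.97), and the count of higher genes was 2 in those, 5 with the UMI minimum doubled and 6 with the highest doublet scores removed. COL8A1, a collagen of vessel walls and corneal endothelium, was the most concentrated of the 21 in this class, which held 70.3% of its UMIs and 26.7% of all UMIs. The class also had 4 of 6 smooth muscle markers at least 2-fold higher, and their part was not tested.

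OSR1 marks irregular connective tissue, and in OSR1+ cells 3 of 20 collagen genes were higher, against 2.15%, and 3 lower, against 3.08%. COL3A1 was at 3305 against 1644 CPM, 2.01-fold higher (1.96 to 2.06), a call that was lost under 5 alternatives (log2 ratios 0.96 to 0.99). COL1A1, in contrast, was at 8768 CPM, so that the ratio of COL1A1 to COL3A1 UMIs was 2.65 in OSR1+ cells, the lowest of the 9 classes, against 10.6 in SCX+ and 8.44 in TWIST2+ cells. COL5A1 was at 3818 CPM in OSR1+ and 4130 CPM in SCX+ cells. COL3A1 was at 3305 CPM (3235 to 3376) in OSR1+ and 3344 CPM (3251 to 3438) in SCX+ cells, and these 2 levels did not differ beyond their intervals.

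In TWIST2+ cells, a marker of dermal and other fibroblasts, 1 of 20 collagen genes was higher, against 3.76%, and 4 were lower, against 5.62%. The higher gene was COL6A2, at 630.3 CPM against 289 CPM in the other cells, 2.18-fold higher (2.10 to 2.26), which dropped under the limit when every cell was weighted equally (log2 ratio 0.96). This class already had more collagen VI at E6, when COL6A2 was at 108 against 29.6 CPM (3.64-fold), COL6A3 at 125 against 58.1 CPM (2.16-fold) and COL6A1 at 26.4 against 11.5 CPM (2.30-fold). The lower genes at E10 were COL4A1, COL4A2, COL8A1 and COL17A1.

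**Figure D4:**
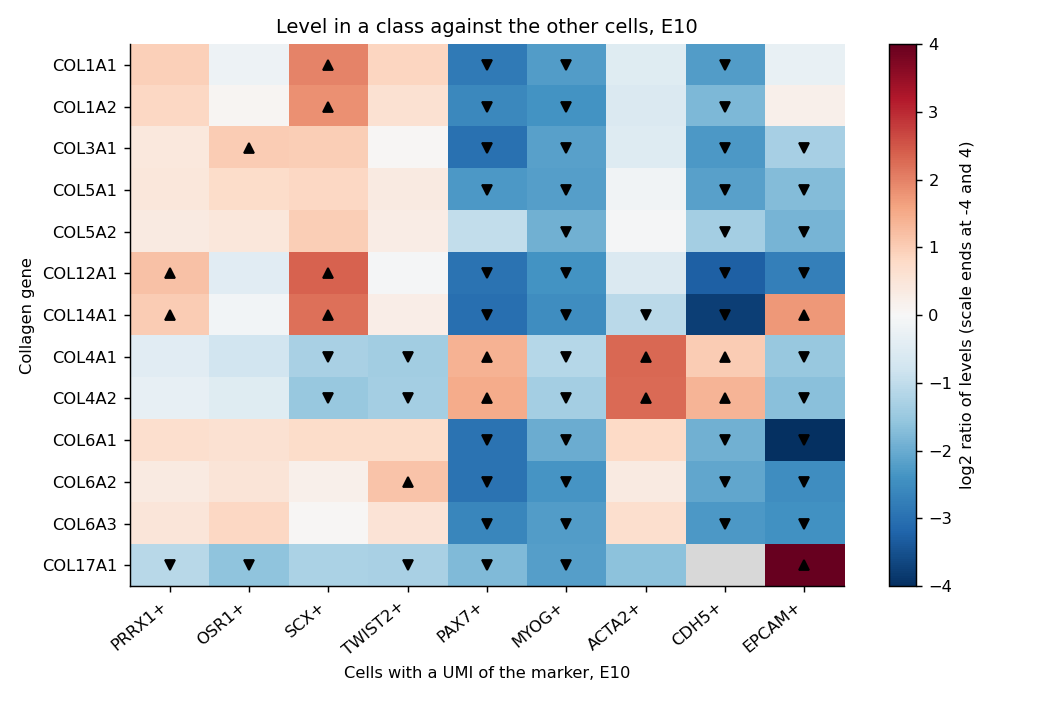
Colour gives the log2 ratio of the level of 13 collagen genes in cells of each class to the level in all other cells at E10 (scale ends at -4 and 4); triangles mark ratios called higher (up) or lower (down), and grey marks COL17A1 in CDH5+ cells, with 0 UMIs. The ratios of most fibrillar and fibril-associated genes are highest in SCX+ cells, that of COL3A1 in OSR1+ cells, those of COL4A1 and COL4A2 in ACTA2+, PAX7+ and CDH5+ cells, and that of COL17A1 in EPCAM+ cells.

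Cells with PAX7, a gene of muscle progenitors, showed nearly the opposite picture. In PAX7+ cells 16 of 20 collagen genes were lower than in the other cells at E10, against 12.9% of all genes, and 2 were higher, against 2.41%. The 2 were the basement membrane chains, COL4A1 at 1165 against 446 CPM (2.61-fold, 2.52 to 2.70) and COL4A2 at 130.2 against 46.8 CPM (2.78-fold, 2.50 to 3.09). These cells held 24.1% of all COL4A1 UMIs with 10.8% of all UMIs, and after thinning 39.0% of them had a COL4A1 UMI (74.0% unthinned), against 1.11% of erythroid cells (5.56% unthinned) at median depths of 1432.5 and 1366.5 UMIs. COL1A1 was at 1563 against 11026 CPM, 0.142 of the level in the other cells, COL3A1 at 249.8 against 1957 CPM and COL12A1 at 99.2 against 762 CPM.

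Among erythroid cells the median share of collagen UMIs was 0, the 75th percentile 0.0617% and the 90th 0.3125%. Their pooled level thus came from a minority of cells, while the median in PAX7+ cells was 0.256%. Set against the pooled erythroid levels, PAX7+ cells had 1.22 times the level of COL3A1, 1.75 times that of COL1A1 and 1.99 times that of COL1A2. They had 2.18 times that of COL5A1 and 7.17 times that of COL5A2 (3.43 to 18.0). Of the other genes, COL14A1 was at 1.15 times and COL4A1 at 22.1 times the erythroid level. The levels of COL3A1 and COL14A1 also lay below those of free RNA, at 0.300 and 0.376 of its level. Below free RNA too were COL1A1 (0.520 of its level), COL1A2 (0.716), COL5A1 (0.617), COL12A1 (0.475), COL6A1 (0.511), COL6A2 (0.404) and COL6A3 (0.586). Free RNA made up an estimated 6.45% of the UMIs of E10 cells, so its own level is not the level it would give in a cell. In PAX7+ cells without a marker of another lineage, COL5A1 was at 431 CPM (408 to 456) and COL1A1 at 924 CPM (890 to 960). Erythroid cells had 247 and 895 CPM. How much of the levels below free RNA is background was not tested. COL5A2 and COL4A1 stood at 1.55 and 6.10 times free RNA. From E6 to E10, 7 of 11 collagen genes were higher within PAX7+ cells, against 4.02% of all genes. This count includes COL3A1, COL5A1, COL6A2, COL12A1 and COL14A1, whose levels at E10 lay below those of free RNA. The estimated free RNA share was 1.37% at E6 and 6.45% at E10, and its part in the count was not tested. COL4A1, above free RNA, went from 98.6 to 1165 CPM, 11.8-fold (9.40 to 15.0). At E4, the 45 PAX7+ cells, too few to be compared, had COL4A1 at 103 CPM (64.4 to 156).

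In MYOG+ cells, which are differentiating myoblasts, 0 of 20 collagen genes were higher, against 4.42%, and 15 were lower, against 15.9%. COL4A1 was at 244 against 539 CPM (0.452 of the level) and so did not share the high level of PAX7+ cells. COL1A1 was at 2219 against 10414 CPM. Among PAX7+ cells, 12.8% also had a PRRX1 UMI, and among MYOG+ cells 7.69% did. Without cells that had a UMI of PDGFRA, CDH5, EPCAM or a connective tissue class marker, COL1A1 was at 924 CPM in PAX7+ cells (890 to 960) and 747 CPM in MYOG+ cells (702 to 794), where erythroid cells had 895 CPM (828 to 966), while COL4A1 was at 1196 and 228 CPM.

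ACTA2 is the smooth muscle actin of vessel walls, and ACTA2+ cells had the highest collagen IV of the 9 classes. In these, 3 of 20 genes were higher, against 4.2%, and 1 was lower, against 3.4%. COL4A1 was at 2282 CPM (2196 to 2371) against 461 CPM, 4.95-fold higher, and COL4A2 at 237 against 49.4 CPM, 4.80-fold higher. The class held 15.1% of the COL4A1 UMIs with 3.47% of all UMIs. The third gene, COL22A1, known from tissue junctions in other vertebrates, was at 53.6 against 13.0 CPM (4.11-fold, 3.10 to 5.38) and is named after its value had been seen. COL14A1 was lower, at 207 against 439 CPM. Of these cells 40.9% also had a PRRX1 UMI, and COL1A1, at 7219 CPM, was not called against the other cells.

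In CDH5+ cells, of the endothelium, 2 genes were higher, against 6.17%, and 12 lower, against 4.78%. COL4A1 was at 1052 CPM (921 to 1197) against 521 CPM, 2.02-fold, and COL4A2 at 141 against 55.3 CPM, 2.55-fold. The COL4A1 call was lost with the highest doublet scores removed, with equal weights of cells, on the median ratio scale and without erythroid cells (log2 ratios 0.91 to 0.99). With only 21 CDH5+ cells at E4 and 16 at E6 the earlier stages were not compared, but COL4A1 was at 317 CPM (205 to 468) and 698 CPM (426 to 1078) in them, where all cells had 15.9 and 77.2 CPM. COL4A2 was called higher in PAX7+, ACTA2+ and CDH5+ cells at E10, COL4A1 in all 3 too but at the limit in CDH5+ cells, and no fibrillar gene was called higher in any of them.

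**Figure D5:**
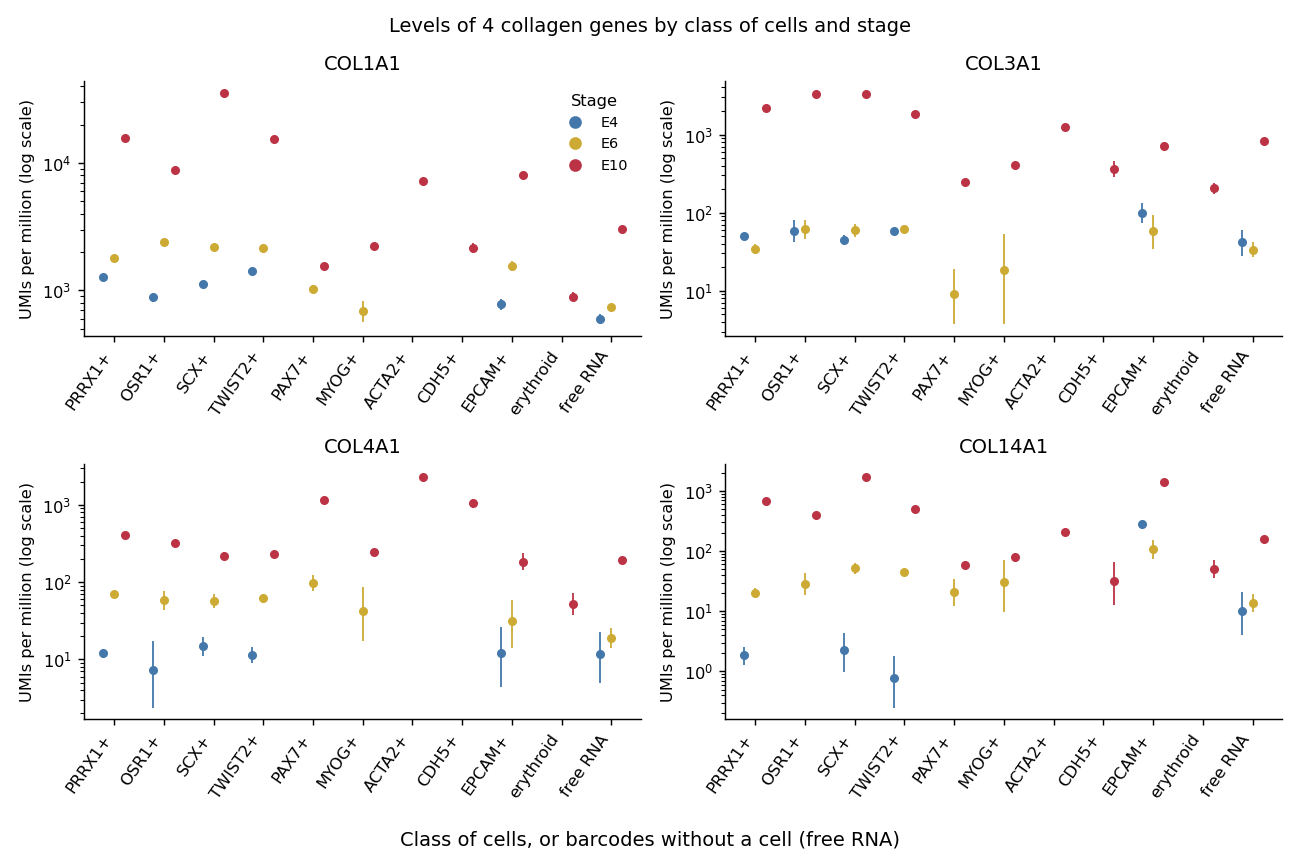
Levels of COL1A1, COL3A1, COL4A1 and COL14A1 (CPM, log axes) by stage in the 9 classes, in erythroid cells and in barcodes without a cell (free RNA); points are levels of 1 library, bars exact Poisson 95% intervals, and classes under 50 cells or with 0 UMIs are not drawn. COL14A1 is highest in EPCAM+ cells at E4 and E6 and in SCX+ and EPCAM+ cells at E10.

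The cells that held COL14A1 differed between the stages. At E4, 139 of its 182 UMIs (76.4%) came from the 118 EPCAM+ cells, ectoderm by 6 of 8 markers, which held 2.38% of all UMIs. Its level there was 281 CPM (236 to 331) against 2.12 CPM in the other cells, 132-fold higher (93.5 to 191). Of these EPCAM+ cells 50% also had a PRRX1 UMI. In the 52 without a UMI of a connective tissue or muscle marker or CDH5, COL14A1 was at 643 CPM (536 to 766). The 45 PAX7+ cells, too few to be compared, held 5.49% of its UMIs at E4 with 1.03% of all UMIs. In the 30 of them without a UMI of a connective tissue marker, CDH5 or EPCAM it was at 43.5 CPM (16.0 to 94.7), from 6 UMIs. At the same stage it was at 1.84 CPM in PRRX1+, 2.23 CPM in SCX+ and 0.771 CPM in TWIST2+ cells. It had 0 UMIs in OSR1+ cells (up to 4.40 CPM) and was at 10.1 CPM in free RNA. Free RNA made up an estimated 0.225% of the UMIs of E4 cells. How much of the level in PRRX1+, SCX+, TWIST2+ and OSR1+ cells is background was not tested. At E6, it was at 107 CPM in EPCAM+ cells (72.7 to 152), 0.381 of the level at E4, and at 20.4, 52.0, 44.3 and 28.8 CPM in PRRX1+, SCX+, TWIST2+ and OSR1+ cells. Of the EPCAM+ cells at E6 49.1% had a PRRX1 UMI. In the 37 without any of the other markers COL14A1 was at 300 CPM (194 to 442).

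At E10, COL14A1 was at 1413 CPM in EPCAM+ cells (1288 to 1545) and 1719 CPM in SCX+ cells (1653 to 1788), and EPCAM+ cells by then held 3.30% of its UMIs. After thinning, 43.1% of EPCAM+ and 38.3% of SCX+ cells had a COL14A1 UMI (71.3% and 60.4% unthinned), against 1.78% of erythroid cells (3.33% unthinned). In EPCAM+ cells without a UMI of a connective tissue or muscle marker or CDH5, COL14A1 was at 1569 CPM at E10. Over the 3 stages COL14A1 was called lower in PRRX1+ than in other cells at E4 and E6 and higher at E10, with the E10 value at the 2-fold limit.

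EPCAM+ cells had 2 of 20 collagen genes higher at E10, against 4.16%, and 10 lower, against 6.08%. Besides COL14A1 this was COL17A1, the collagen of hemidesmosomes, at 357 against 4.33 CPM, 82.3-fold higher (64.1 to 106). COL17A1 was at 40.4 CPM in EPCAM+ cells at E4 and 124 CPM at E6, 24.8-fold and 30.2-fold above the other cells, and the class held 37.7%, 46.8% and 45.6% of its UMIs at the 3 stages. COL12A1, at 104 against 696 CPM, and all 3 collagen VI chains were lower. COL1A1 was at 8095 CPM and COL1A2 at 416 CPM in EPCAM+ cells, 9.05 and 12.3 times the erythroid level, and neither was called against the other cells. Connective tissue markers summed to 1760.5 CPM in EPCAM+ cells, with 0 of 7 at 0, against 3114 CPM in the other cells, and their part was not tested. Without cells that had another lineage marker, COL1A1 was at 8266 CPM.

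Free RNA differed in its weight between genes. In barcodes without a cell at E10, COL1A1 was at 3006, COL5A1 at 875, COL3A1 at 832 and COL4A1 at 191 CPM, and in erythroid cells at 895, 247, 205 and 52.7 CPM. The levels of COL1A1, COL3A1 and COL5A1 in MYOG+ and CDH5+ cells were between 1.77 and 2.48 times the erythroid level. Against free RNA they were between 0.438 and 0.738 times its level. In SCX+ cells the 3 genes were at between 16.3 and 39.4 times the erythroid level and between 4.02 and 11.7 times that of free RNA. The other cells that each class was set against include these low classes.

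Likeness between the genes was measured over the 21 profiles of a class at a stage (at least 50 cells, log2 of CPM plus 10), which share libraries and cells, so that the coefficients are a description. Pearson's r was 0.96 between COL4A1 and COL4A2, 0.95 between COL5A1 and COL6A2, 0.93 between COL1A1 and COL12A1, 0.92 between COL1A1 and COL1A2 and 0.92 between COL6A1 and COL6A2. Chains of 1 collagen type were each other's nearest gene only for COL4A1 and COL4A2 among the 12 other genes. COL5A2 ranked 7th in likeness to COL5A1, while COL5A1 was the nearest gene to COL5A2 (0.88). In 1 direction only, COL1A1 was also the nearest to COL1A2, COL6A2 to COL6A1 and COL6A1 to COL6A3. Over the 9 classes of E10 alone, r was 0.99 for COL1A1 and COL1A2 and 0.87 for the neighbours COL3A1 and COL5A2. COL17A1 was unlike all others, with its highest r, 0.46, to COL14A1.

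Of 34 genes for making and secreting collagen, 31 were in the tables. Between E4 and E6, 6 of the 23 with enough UMIs were higher and 0 lower, against 9.32% and 3.61% of all genes, among them SERPINH1, the collagen chaperone (127 to 261 CPM), and P4HA3, a prolyl hydroxylase subunit (35.2 to 101 CPM). Between E6 and E10, 4 of 26 were higher and 0 lower, against 9.53% and 5.49% of all genes, with SPARC, a collagen-binding matrix protein, from 461 to 923 CPM, P4HA1 from 87.4 to 177 CPM and FKBP14, an isomerase that helps folding, from 44.6 to 123 CPM. In PRRX1+ cells it was 10 of 24 higher and 0 lower at this step, against 9.11% and 4.77% of all genes, including PLOD1, a lysyl hydroxylase, from 167 to 359 CPM, SERPINH1 from 252 to 611 CPM and ADAMTS3, which trims procollagen, from 32.6 to 106 CPM.

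SCX+ cells at E10 had 12 of 25 of these genes higher and 0 lower, against 3.32% and 5.05% of all genes. SERPINH1 was at 1026 against 449 CPM, PLOD1 at 751 against 294 CPM, P4HA3 at 260.3 against 101 CPM, PLOD2 at 228 against 103 CPM, P3H4 at 183 against 61.0 CPM, LOXL2, a cross-linking enzyme, at 301 against 125 CPM, ADAMTS3 at 135 against 58.8 CPM and SPARC at 2078 against 869 CPM. PAX7+ and MYOG+ cells had 10 and 13 of 25 lower, against 12.9% and 15.9% of all genes, and 0 higher, against 2.41% and 4.42%. ACTA2+ cells had 1 of 25 higher and 0 lower, where 4.2% and 3.4% of all genes were so, which is no more than the background.

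Of 16 collagen receptors and genes of breakdown, 14 were in the tables. Between E4 and E6, 2 of 11 were higher and 0 lower, against 9.32% and 3.61% of all genes, among them TIMP3, an inhibitor of matrix proteases (25.9 to 158 CPM). Between E6 and E10 it was 4 of 12 and 0 lower, against 9.53% and 5.49%, with TIMP2 from 58.6 to 131 CPM. In SCX+ cells at E10, 3 of 12 were higher and 0 lower, against 3.32% and 5.05%: ITGA11, a receptor for fibrillar collagen, was at 385 against 41.6 CPM, 9.25-fold higher, MMP16 at 253 against 92.5 CPM and CTSK, a collagen-cleaving protease, at 203 against 64.0 CPM. ACTA2+ cells had 2 of 12 higher and 1 lower, against 4.2% and 3.4%, and the higher ones were the chains of a receptor for collagen IV, ITGA1 at 255 against 66.8 CPM and ITGB1 at 1405 against 661 CPM. EPCAM+ cells had 2 of 12 higher and 6 lower, against 4.16% and 6.08%, among the former the receptor DDR1 at 155 against 71.9 CPM.

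The cartilage collagens left out by the rule had few UMIs in these libraries, and COL9A2 was not in the count tables. As above, UMIs depend on how well the 3′ end of each gene is annotated, so low counts are not read as low abundance. COL2A1 had 116, 55 and 375 UMIs over the stages, COL9A1 had 56, 143 and 594, and COL9A3 had 1, 16 and 105. In the 222 cells of E10 with a UMI of ACAN, a cartilage proteoglycan, COL9A1 was at 828 CPM and COL2A1 at 73.3 CPM, while COL1A1 was at 29581, COL12A1 at 2778 and COL14A1 at 1618 CPM. Collagen genes gave 4.26% of the UMIs of ACAN+ cells. In them 8 of 20 collagen genes were higher than in the other cells, against 3.57% of all genes, and 2 lower, against 2.75%. Of the receptors and genes of breakdown, 4 of 12 were higher (ITGA11, MRC2, MMP16 and CTSK) and 0 lower. These ACAN+ cells thus held fibrillar and fibril-associated collagens at levels near those of SCX+ cells. As a check on the exclusion they do not stand for cartilage alone.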

How the data were processed

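The authors deposited raw UMI counts for 6794880 barcodes per library, made with Cell Ranger 3.0.2 on GRCg6a, before their own filters, doublet removal and normalisation. Depth was 22765180, 15004113 and 46497874 UMIs at E4, E6 and E10, of which 91.3%, 68.4% and 71.7% lay in kept cells. Counts were summed over cells and divided by all UMIs of those cells (CPM). Exact Poisson intervals for levels, exact binomial (Clopper-Pearson) intervals for shares and exact conditional intervals for ratios were computed at 95% and cover counting error only. With 1 library per stage no test was possible, and a limit of 3 counts was set on a count of 0. Thinning drew 450 UMIs per cell without replacement and left out 0 cells. Doublets were not removed. As an alternative the highest Scrublet scores were removed, and the share of cells removed grew by 0.8% for every 1000 cells in the library. This share was therefore by far the largest at E10, with 27361 cells. The free RNA share was estimated from haemoglobin. Genes with at least 100 CPM in a stage or in a class of at least 50 cells were named with their values, the others by range and count. In the 2 lists of collagen making and of receptors and breakdown, genes called with at least 100 CPM were named. The members, classes and lists were chosen with earlier results of these data known. Alternatives were the UMI minimum, a 10% mitochondrial limit, doublets, haemoglobin and mitochondrial UMIs, free RNA, equal weights of cells, a median ratio scale, no UMI minimum for genes, a fold of 1.5, 2 marker UMIs, cells with a marker of another lineage, and thinning to 1000 UMIs. Leaving out erythroid cells was chosen after seeing the data. Symbols and neighbours came from the RefSeq table of GRCg7b, with no coordinates used. Tools were scanpy 1.11.5 for Scrublet, matplotlib 3.10.9 for plots, scipy 1.17.1 for intervals, and pandas 2.3.3 and numpy 2.4.6 in Python 3.11.15. No collagen sequence was used here.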

Additional observations from a re-analysis of the deposited data

Results flagged for a closer look

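COL14A1 and COL25A1 were called in opposite directions under the same comparison, and with 1 library per stage these differences were not tested. COL14A1 in PRRX1+ cells against other cells had a log2 ratio of -5.11 at E4, -1.49 at E6 and 1.0 at E10. In SCX+ cells against other cells its log2 ratio was -2.18 at E4 and 2.21 at E10. From E4 to E6, COL14A1 had a log2 ratio of 3.47 in PRRX1+, 4.54 in SCX+ and 5.84 in TWIST2+ cells, but -1.39 in EPCAM+ cells. COL25A1 in OSR1+ cells against other cells had a log2 ratio of 1.76 at E4, from 10 UMIs, and -2.06 at E10, from 3 UMIs.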

How the results depend on the processing

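No paired analysis was possible because each stage has 1 library. Among the recomputed ratios of single genes, none that had been called turned its direction under an alternative. Ratios that had not been called were not checked for this. Not recomputed were the classes against other cells at E4 and E6, and steps between stages within classes other than PRRX1+. Of 1881 alternatives for single genes 1797 kept the call and 84 changed it, most often the fold of 1.5 (22 of 168). The collagen share at E4 was 0.196% without haemoglobin and mitochondrial UMIs and 0.198% with equal weights. At E6 it was 0.331% with the UMI minimum doubled, 0.321% with the mitochondrial limit, 0.372% without haemoglobin and mitochondrial UMIs and 0.379% with equal weights. At E10 these were 1.69%, 1.77%, 1.92% and 1.78%, with 1.61% after Scrublet, 1.81% after subtraction of free RNA and 1.76% without erythroid cells. In PRRX1+ cells 1 gene was lower at E10 than at E6 with a fold of 1.5 or 2 marker UMIs. Higher genes at E10 were 5 in PRRX1+ cells with the UMI minimum doubled, 6 after Scrublet and 7 with a fold of 1.5. A fold of 1.5 gave 7 in OSR1+, 4 in TWIST2+ and 6 in ACTA2+ cells. TWIST2+ cells had 2 after Scrublet and 0 with equal weights, and CDH5+ cells 1 after Scrublet, with equal weights, on the median ratio scale and without erythroid cells. The cause of these changes was not tested. With each cell thinned to 1000 UMIs, which leaves out shallower cells, the share of cells with a COL1A1 UMI, E4 cells first, was 67.4%, 73.9% and 74.0%, and the share of cells with a COL4A1 UMI, E4 cells first, was 1.24%, 6.69% and 28.7%. The median ratio scale moved all genes by 0.10 (log2) in MYOG+, 0.10 in CDH5+ and 0.14 in EPCAM+ comparisons. Depth limits low genes most: at a median of 1081 UMIs at E10, genes under 100 CPM are missed in most cells.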
